A study of Mus musculus with 15 samples.

Results

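The odorant receptor genes numbered Olfr1410 to Olfr1505 were followed through an odour-exposure experiment on the mouse nose. The rule that chose them, written with earlier results of these data known, uses only names: every gene whose older symbol is Olfr and a number in that range, without a pseudogene suffix and without Olfr1426. The rule gave 66 genes, of 1107 intact odorant receptors and 57010 gene identifiers in the count table. Intact here means only a symbol of Olfr and a number without a suffix, and reading frames were not used for it. In the RefSeq annotation of GRCm38, 7 of them lie on chromosome 1 (Olfr1410 to Olfr1416) and 59 on chromosome 19. By their MOR names, an older receptor nomenclature that groups genes by sequence, 64 of the 66 fall into 10 subfamilies. MOR202 holds 30 of them, MOR266 holds 8, MOR239 holds 5, and MOR208, MOR212 and MOR214 hold 4 each. The MOR names of Olfr1463, Olfr1474, Olfr1490, Olfr1500 and Olfr1505 end in P, and whether these genes encode a working receptor was not tested.

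Messenger RNA bound to ribosomes with phosphorylated ribosomal protein S6 was precipitated from the olfactory epithelium and sequenced (pS6-IP RNA-seq). All mice were wild-type C57BL/6J males 8 weeks old, kept 4 h without odour and then exposed for 90 min. A+D mice smelled acetophenone and decanal placed together on 1 filter paper, and A&D mice smelled the same odorants on 2 papers about 1 mm apart. O+C mice smelled octanal and cis-3-hexenol on 1 paper, and O&C mice smelled these on 2 papers. Control mice had paper with no odorant. Each odorant was given as 10 µL, each group had 3 libraries, and the 15 libraries held 22704193 to 25287077 counts. No group received 1 odorant alone, so a response cannot be assigned to a single compound by this design.

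Odorant receptors are G-protein-coupled receptors, and each mature olfactory sensory neuron expresses a single receptor gene from a single allele. Binding of an odorant raises cyclic AMP through the G protein Gnal and the adenylyl cyclase Adcy3, which opens the Cnga2 channel. Active neurons phosphorylate S6, so the precipitate is enriched for the receptor messages of neurons that responded. In bulk tissue a receptor's level depends both on how many neurons express it and on how much RNA each one gives, and these cannot be told apart here.

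Several of these receptors are near copies of each other, and the results below turn on how such copies differ. Coding sequences of GENCODE M21 (GRCm38 annotation) were compared gene by gene. Within a subfamily, identity ran from 56.48% to 97.48% with a median of 68.94% over 498 pairs. Across subfamilies the median was 56.98% over 1518 pairs. Olfr1418 and Olfr1417 are neighbours on chromosome 19, both of MOR266, and are 96.13% identical, with gaps counted as differences. Their coding lengths are 957 and 948 bases, 28 aligned bases differ, and 11 of 316 aligned codons encode another amino acid. The 90 coding bases with the densest differences, bases 853 to 942 near the 3′ end of the coding sequence, are shown on the coding strand because only Olfr1418 of this pair was called. Capitals mark the 14 positions that differ.

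Olfr1418: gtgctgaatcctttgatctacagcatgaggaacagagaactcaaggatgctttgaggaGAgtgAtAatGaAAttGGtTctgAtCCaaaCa
Olfr1417: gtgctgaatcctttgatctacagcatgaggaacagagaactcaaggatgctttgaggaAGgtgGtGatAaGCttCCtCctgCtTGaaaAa

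In MOR202, Olfr1484 is 96.52% identical to Olfr1477 and 95.04% identical to Olfr1487. Coding bases 538 to 627 hold 13 positions that differ among these 3 genes, in capitals. They are shown because Olfr1484 and Olfr1477 were called higher with acetophenone and decanal and Olfr1487 was not.

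Olfr1484: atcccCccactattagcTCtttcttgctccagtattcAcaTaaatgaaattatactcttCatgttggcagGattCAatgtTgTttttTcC
Olfr1477: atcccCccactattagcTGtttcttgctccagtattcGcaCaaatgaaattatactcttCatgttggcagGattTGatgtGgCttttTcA
Olfr1487: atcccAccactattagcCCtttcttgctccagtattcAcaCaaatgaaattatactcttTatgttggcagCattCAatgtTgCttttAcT

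The MOR208 genes lie together on chromosome 1 and are less alike, with 80.35% to 86.43% identity. Olfr1411 was called in both octanal and cis-3-hexenol groups, while Olfr1412 and Olfr1413 were called in none. The aligned stretch below covers coding bases 580 to 669, or 577 to 666 in Olfr1412. Capitals mark the 42 positions where the 4 genes are not all the same.

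Olfr1411: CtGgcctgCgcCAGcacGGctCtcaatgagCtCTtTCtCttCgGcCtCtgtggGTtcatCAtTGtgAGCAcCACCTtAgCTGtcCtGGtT
Olfr1410: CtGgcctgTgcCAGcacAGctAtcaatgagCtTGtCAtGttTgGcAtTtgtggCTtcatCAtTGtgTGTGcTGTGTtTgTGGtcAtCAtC
Olfr1412: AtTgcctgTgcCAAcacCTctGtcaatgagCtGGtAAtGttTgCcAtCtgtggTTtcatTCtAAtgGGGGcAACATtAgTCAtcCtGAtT
Olfr1413: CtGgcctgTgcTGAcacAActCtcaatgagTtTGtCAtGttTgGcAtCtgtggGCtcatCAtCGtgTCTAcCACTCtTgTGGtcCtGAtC

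The filter on low counts, for which 0.416 CPM (counts scaled to a common library size, with TMM factors) in 3 libraries is about enough, passed 53 of the 66 receptors. The 13 others were Olfr1432, Olfr1436, Olfr1445, Olfr1449, Olfr1450, Olfr1451, Olfr1453, Olfr1462, Olfr1465, Olfr1472, Olfr1475, Olfr1499 and Olfr1502. Each of these had 3 to 71 counts over all 15 libraries, and no test was made on them. Olfr1449, with 24 counts in A+D mice, 25 in A&D mice, 7 in O+C mice, 11 in O&C mice and 4 in Control mice, had 21 of its counts in a single library. Olfr1467, Olfr1469, Olfr1471 and Olfr1474 passed the filter only through the A+D and A&D libraries, so their calls are values and no support for a count. Estimated counts of 12 tested receptors were not whole in 8 or more libraries (tolerance 0.0005), so they share reads with another gene and are uncertain: Olfr1411, Olfr1413 to Olfr1418, Olfr1424, Olfr1425, Olfr1477, Olfr1484 and Olfr1487.

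Markers of mature sensory neurons were abundant in all libraries, and of 12 such genes 0 were called higher in A+D mice, 3 in A&D mice, 12 in O+C mice and 12 in O&C mice, with 0 lower. Their summed level over 12 genes was 10218 to 12909 CPM in A+D mice, 12860 to 15761 in A&D mice, 15150 to 18705 in O+C mice, 15407 to 21087 in O&C mice and 9065 to 10031 in Control mice. The share of all genes called higher was 0.296% in A+D mice, 1.00% in A&D mice, 5.74% in O+C mice and 9.33% in O&C mice. The A+D replicate 2 library stood apart, with a mean correlation to the others of 0.958 and 2.09% of counts from ribosomal protein genes, against 0.864% to 1.46% elsewhere. Obp2a, an odorant-binding protein of nasal glands, was at 0.162 to 2.14 CPM in 5 libraries (A+D 2, A&D 1, O&C 1, O&C 3 and Control 1) and at 111 to 525 CPM in the rest. The part these play in the receptor results was not tested, beyond leaving out each library in turn.

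With acetophenone and decanal a small set of these receptors was higher. In A&D mice these were 3 of 8 tested receptors of MOR266, 4 of 21 of MOR202 and 1 of 5 of MOR239. In A&D mice 8 of 53 receptors (15.1%) were called higher than in Control mice and 0 (0%) lower. Called means an adjusted p under 0.05 by edgeR's quasi-likelihood test with Benjamini-Hochberg adjustment over all 19229 genes. Among all genes 1.00% were called higher and 0.0208% lower in that comparison, and among the 866 intact receptors tested 10.3% higher and 0% lower. In A+D mice 4 of 53 (7.55%) were higher and 0 (0%) lower, against 0.296% higher and 0.0260% lower among all genes, and 5.31% higher and 0% lower among receptors. The 4 were among the 8, and both comparisons use the same Control libraries. Olfr1467 and Olfr1474, 2 of the 8 and both of MOR202, are among those that passed the filter only through these groups. The shares are not far from those of all receptors, and the difference was not tested. The counts are therefore no result about these receptors, and the single genes are what the data show.

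Olfr1420 (MOR266) stood at 16.8, 18.4 and 18.1 CPM in A+D libraries and at 40.6, 40.1 and 39.6 CPM in A&D libraries, against 5.29, 8.54 and 5.95 CPM in Control libraries. The 3 groups did not overlap, and the A&D libraries were nearly equal. Its log2 fold change was 2.60 ± 0.21 (SE) in A&D mice (adjusted p = 4.64e-07) and 1.43 ± 0.20 in A+D mice (adjusted p = 0.00106, edgeR). Its neighbour Olfr1419, of the same subfamily and no more than 65.21% identical to any other of the 66, had 4.20, 7.44 and 5.79 CPM in A+D mice, 13.4, 13.4 and 10.1 CPM in A&D mice and 1.25, 1.79 and 1.12 CPM in Control libraries. This is a log2 fold change of 3.14 ± 0.28 in A&D mice (adjusted p = 2.14e-06) and 2.06 ± 0.28 in A+D mice (adjusted p = 0.000688, edgeR). Olfr1418, next in line, had 10.8, 7.58 and 8.77 CPM in A&D libraries, against 1.90, 1.44 and 1.82 CPM in Control libraries, and rose by 2.39 ± 0.28 (log2, adjusted p = 4.61e-05, edgeR). In A+D libraries Olfr1418 was at 3.44, 3.76 and 2.73 CPM, above every Control library, but the change was not called (0.94 ± 0.28, adjusted p = 0.206, edgeR). Olfr1417, which precedes these 3 on the chromosome, averaged 4.90 ± 0.719 CPM in A+D mice, 5.11 ± 0.453 in A&D mice and 5.45 ± 0.403 in Control mice (SD, n = 3) and was not called.

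The near copies Olfr1484 and Olfr1477 of MOR202 rose together, though both share reads with another gene and are uncertain. Olfr1484 was at 12.6, 13.5 and 8.48 CPM in A+D mice and 19.7, 14.5 and 14.8 CPM in A&D libraries, against 4.77, 3.67 and 3.80 CPM in Control libraries. Its log2 fold change was 1.49 ± 0.21 in A+D mice (adjusted p = 0.00069) and 2.00 ± 0.21 in A&D mice (adjusted p = 8.9e-06, edgeR). Olfr1477 had 5.54, 4.43 and 5.38 CPM in A+D mice and 6.46, 7.75 and 6.18 CPM in A&D libraries, and the Control libraries were tightly placed at 1.495, 1.60 and 1.61 CPM. It changed by 1.70 ± 0.25 in A+D mice (adjusted p = 0.00114) and by 2.11 ± 0.25 in A&D mice (adjusted p = 4.61e-05, edgeR). Neither gene's acetophenone and decanal libraries overlapped its Control libraries. Olfr1487, the third close copy, averaged 0.910 ± 0.328 CPM in A+D mice, 0.790 ± 0.439 in A&D mice and 0.794 ± 0.256 in Control mice (SD, n = 3), so its groups overlapped throughout.

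Less abundant receptors carried more counting error. Olfr1474 (MOR202) had 61 counts over the 3 A&D libraries (exact 95% Poisson interval 46.7 to 78.4, counting error only), against 4 in Control libraries (1.09 to 10.2). Its fitted log2 change of 3.85 ± 0.63 (adjusted p = 0.00195, edgeR) therefore rests on very few Control counts. Olfr1467 (MOR202) had 220 counts in A&D mice (192 to 251) and 31 in Control libraries (21.1 to 44.0), a change of 2.85 ± 0.57 (adjusted p = 0.0152, edgeR) that was lost without Control 1, Control 2 or A&D 2, reaching 0.106. Olfr1425 (MOR239) averaged 1.83 ± 0.398 CPM in A&D mice and 0.565 ± 0.216 CPM in Control mice (SD, n = 3). Its adjusted p of 0.05 (0.04997 before rounding, edgeR) rose as high as 0.222 when any 1 of the 6 libraries was left out. The lower-count Olfr1469 missed the threshold in both groups, at 2.64 ± 0.65 in A&D mice (adjusted p = 0.0621) and 2.75 ± 0.65 in A+D mice (adjusted p = 0.0945, edgeR), and is named here after its values were seen.

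**Figure D1:**
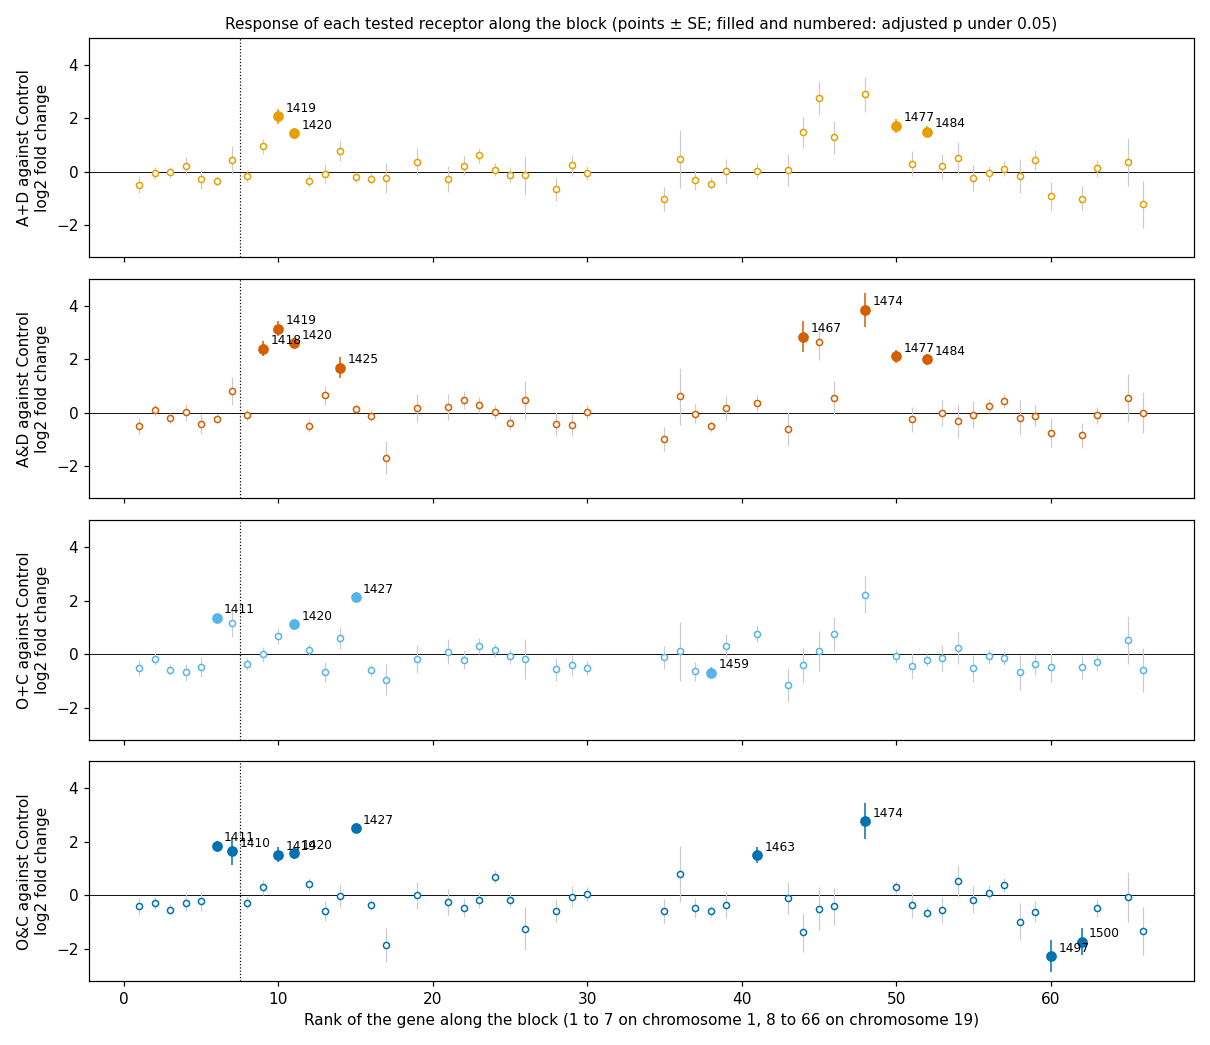
Log2 fold change against Control (± SE) of the 53 tested receptors, in their order along the chromosomes, with a panel for each odour group. Filled, numbered points have an adjusted p under 0.05. The neighbours Olfr1418, Olfr1419 and Olfr1420 are all called higher in A&D mice, and Olfr1411 and Olfr1427 are called higher in both O+C and O&C mice.

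With octanal and cis-3-hexenol the receptors with the smallest adjusted p were Olfr1427 and Olfr1411. In O&C mice 7 of 53 receptors (13.2%) were higher than in Control mice and 2 (3.77%) lower, against 9.33% higher and 5.41% lower among all genes, and 15.5% higher and 8.20% lower among receptors. Olfr1474, among these 7, passed the filter only through A+D and A&D libraries. In O+C mice 3 (5.66%) were higher and 1 (1.89%) lower, against 5.74% higher and 2.35% lower among all genes, and 11.3% higher and 3.70% lower among receptors. These shares are near or under the background, so the counts are no result about these receptors and the single genes are what the data show. Scaling on receptors alone raised the median log2 change of all genes by 0.24 in O+C mice and 0.26 in O&C mice. It gave 5 higher and 0 lower in O+C mice, and 8 higher and 1 lower in O&C mice.

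Olfr1427 (MOR239), with the highest CPM of the 66 in Control mice (not per length), stood at 123, 79.95 and 83.6 CPM in O+C mice and 92.0, 138 and 143 CPM in O&C libraries. Control libraries had 17.5, 23.1 and 24.9 CPM. Every odour library of these groups was at least 3 times the highest Control library. Its log2 fold change was 2.13 ± 0.19 in O+C mice (adjusted p = 2.14e-06) and 2.51 ± 0.19 in O&C mice (adjusted p = 2.42e-07, edgeR). In the other mixtures it was not called, at 18.97, 17.85 and 20.5 CPM in A+D mice and 25.3, 25.2 and 22.7 CPM in A&D libraries. Of the other MOR239 receptors, Olfr1423, Olfr1424 and Olfr1428 were called in no comparison with Control, and Olfr1425 only in A&D mice.

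Olfr1411 (MOR208), second by CPM in Control mice, had 33.8, 33.3 and 34.5 CPM in O+C mice and 37.4, 49.4 and 56.9 CPM in O&C libraries, against 13.3, 14.3 and 12.3 CPM in Control libraries. The groups did not overlap, and the change was 1.34 ± 0.17 in O+C mice (adjusted p = 9.73e-05) and 1.85 ± 0.17 in O&C mice (adjusted p = 1.89e-06, log2, edgeR). Its neighbour and relative Olfr1410 was higher in O&C mice (1.64 ± 0.50, adjusted p = 0.0365, edgeR), at 1.65, 2.705 and 1.60 CPM, against 0.364, 0.838 and 0.702 CPM in Control libraries. That call was lost when any 1 of the 6 libraries was left out, with an adjusted p of up to 0.139. Olfr1412 averaged 8.18 ± 0.350 CPM in O+C mice, 9.82 ± 5.08 in O&C mice and 11.5 ± 1.38 in Control mice, and Olfr1413 averaged 1.27 ± 0.508, 1.68 ± 0.168 and, in Control mice, 2.04 ± 0.518 CPM (SD, n = 3). Neither was called.

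Olfr1420 in both groups and Olfr1419 in O&C mice alone were called with octanal and cis-3-hexenol too, at lower levels than with acetophenone and decanal on separate papers. Olfr1420 had 18.0, 11.7 and 13.3 CPM in O+C mice and 14.1, 22.8 and 22.1 CPM in O&C libraries, a change of 1.12 ± 0.20 (adjusted p = 0.00279) and 1.57 ± 0.20 (adjusted p = 7.19e-05, edgeR). It was the only one of the 53 called higher than Control in all 4 odour groups, and these comparisons share their Control libraries. Olfr1419 had 3.77, 4.88 and 3.34 CPM in O&C libraries and rose by 1.52 ± 0.29 (adjusted p = 0.00177, edgeR). In O+C libraries Olfr1419 was at 2.28, 2.89 and 1.48 CPM and was not called (0.67 ± 0.29, adjusted p = 0.176, edgeR). Olfr1474 had 28 counts in O&C libraries (18.6 to 40.5), against the 4 in Control libraries, with a fitted change of 2.77 ± 0.66 (adjusted p = 0.00955, edgeR). It passed the filter only through A+D and A&D libraries, so this call is a value and no support for a count. Olfr1463 (MOR202), outside the naming rule, had 13.96, 27.4 and 30.3 CPM in O&C libraries, against 7.84, 8.89 and 8.55 CPM in Control libraries (1.502 ± 0.31, adjusted p = 0.00418, edgeR).

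The 3 receptors called lower were all of low or modest count. Olfr1497 (MOR212) had 0.173, 0.328 and 0.134 CPM in O&C libraries, against 1.25, 0.838 and 1.07 CPM in Control libraries, and fell by 2.28 ± 0.61 (log2, adjusted p = 0.0174, edgeR). Olfr1500, also MOR212, had 0.824, 0.656 and 0.178 CPM in O&C mice and 1.13, 2.91 and 1.53 CPM in Control libraries (−1.73 ± 0.50, adjusted p = 0.0258, edgeR). Olfr1459 (MOR202) had 1.89, 2.17 and 2.41 CPM in O+C mice and 3.76, 3.75 and 3.02 CPM in Control libraries (−0.70 ± 0.21, adjusted p = 0.0475, edgeR). The groups of each call did not overlap in these 3 genes. Lower fitted levels were not confined to the called groups. Olfr1459 was at 2.28 to 2.77 CPM in A+D and A&D libraries and 2.27 to 2.34 CPM in O&C libraries. All of these lay below every Control library, without a call. Olfr1497 changed by −0.92 in A+D mice and −0.74 in A&D mice, and Olfr1500 by −1.01 and, in A&D mice, −0.84 (log2, not called). With libraries scaled on receptors alone, Olfr1500 (adjusted p = 0.0681) and Olfr1459 (adjusted p = 0.300, edgeR) were not called. Each call was lost without some single library: 3 of 6 for Olfr1497 (Control 1, O&C 1, O&C 3; up to 0.0896), 3 of 6 for Olfr1500 (Control 2, O&C 2, O&C 3; up to 0.147) and any of 6 for Olfr1459 (up to 0.184).

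**Figure D2:**
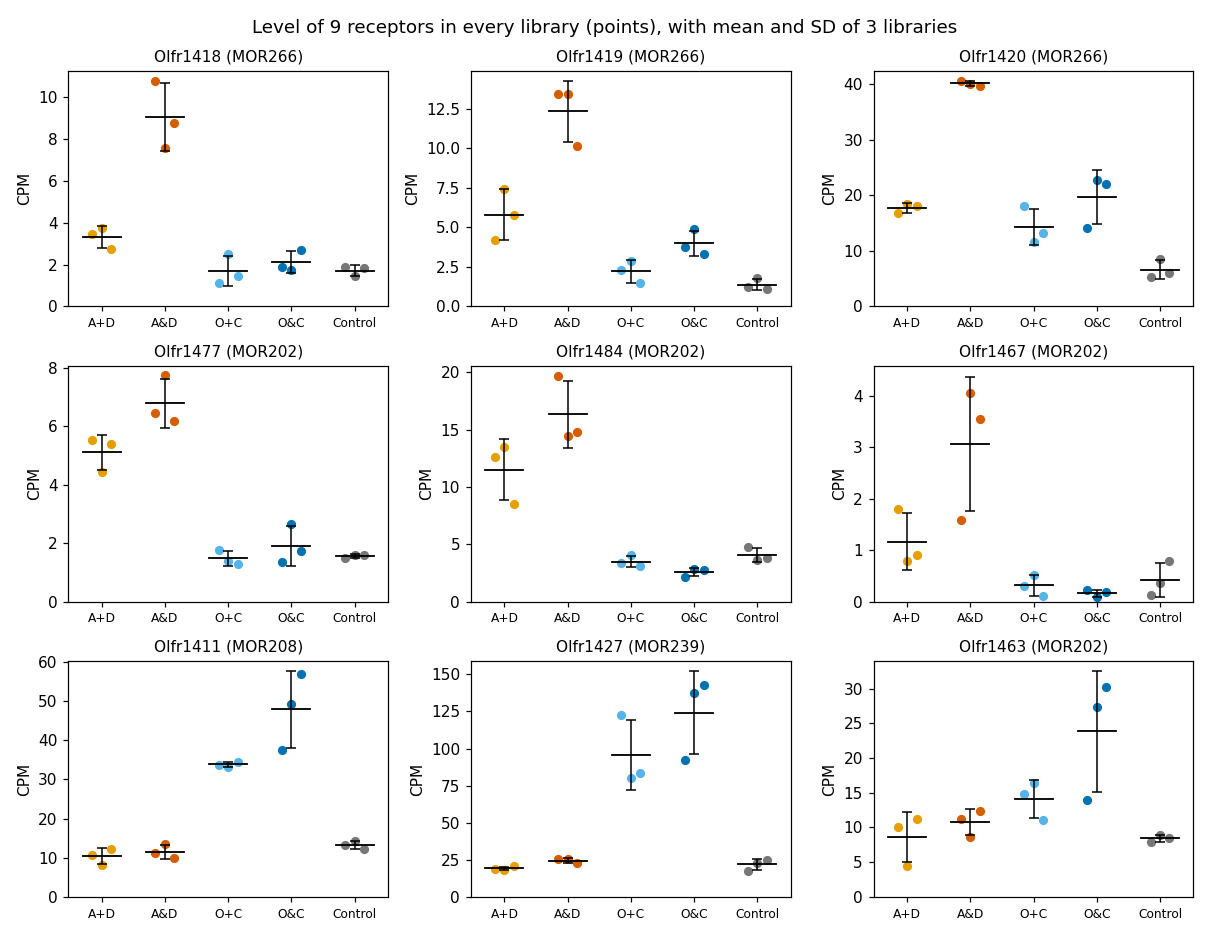
CPM of 9 receptors in each of the 15 libraries (points), with the mean and SD of 3 libraries per group. Olfr1418, Olfr1419 and Olfr1420 are highest in A&D mice, Olfr1477 and Olfr1484 are high in both acetophenone and decanal groups, and Olfr1411 and Olfr1427 are high in both octanal and cis-3-hexenol groups.

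The odorant pairs were then set against each other, 6 libraries a side. Control mice carry no weight in this contrast, but the filter, the scaling and the estimate of the spread used all 15 libraries. Of 53 receptors 4 (7.55%) were called higher and 9 (17%) lower with octanal and cis-3-hexenol, against 9.03% higher and 6.74% lower among all genes, and 13.5% higher and 20.0% lower among receptors. Scaling on receptors alone, which moved the all-gene median by 0.20, gave 6 higher and 7 lower. Olfr1427 averaged 109.8 ± 28.0 CPM with octanal and cis-3-hexenol and 21.7 ± 3.16 CPM with acetophenone and decanal (SD, n = 6), a log2 difference of 2.33 ± 0.13 (adjusted p = 2.79e-09, edgeR). Olfr1411 averaged 40.9 ± 9.91 and, with acetophenone and decanal, 10.9 ± 1.81 CPM (1.88 ± 0.12, adjusted p = 7.44e-09, edgeR). In the other direction, Olfr1484 averaged 3.05 ± 0.633 CPM with octanal and cis-3-hexenol and 13.9 ± 3.63 CPM with acetophenone and decanal (−2.18 ± 0.15, adjusted p = 1.90e-08, edgeR). No library of one side reached the other side in these 3 genes.

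The largest differences belonged to the low-count receptors that passed the filter only through A+D and A&D. Olfr1467 averaged 0.236 ± 0.160 CPM with octanal and cis-3-hexenol and 2.11 ± 1.37 CPM with acetophenone and decanal (−3.06 ± 0.45). Olfr1469 averaged 0.144 ± 0.103 and, with acetophenone and decanal, 1.08 ± 0.240 CPM (−2.89 ± 0.47). The remaining calls, outside the naming rule for this comparison, were Olfr1477 (−1.80), Olfr1418 (−1.53), Olfr1419 (−1.51), Olfr1425 (−0.94), Olfr1424 (−0.92) and Olfr1420 (−0.67) on the lower side and Olfr1463 (0.93) and Olfr1423 (0.69) on the higher side. For Olfr1420 the pooled difference rested on A&D mice. Its mean was 40.1 CPM there and 17.8 in A+D mice, against 14.3 in O+C mice and 19.6 in O&C mice. Calls of Olfr1424, lost without O&C 2 (adjusted p = 0.0595, edgeR), and of Olfr1425, lost without any of 7 libraries (A+D 2, A&D 1, A&D 3, O+C 1, O+C 2, O&C 1, O&C 2; up to 0.0722), depended on single libraries.

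**Figure D3:**
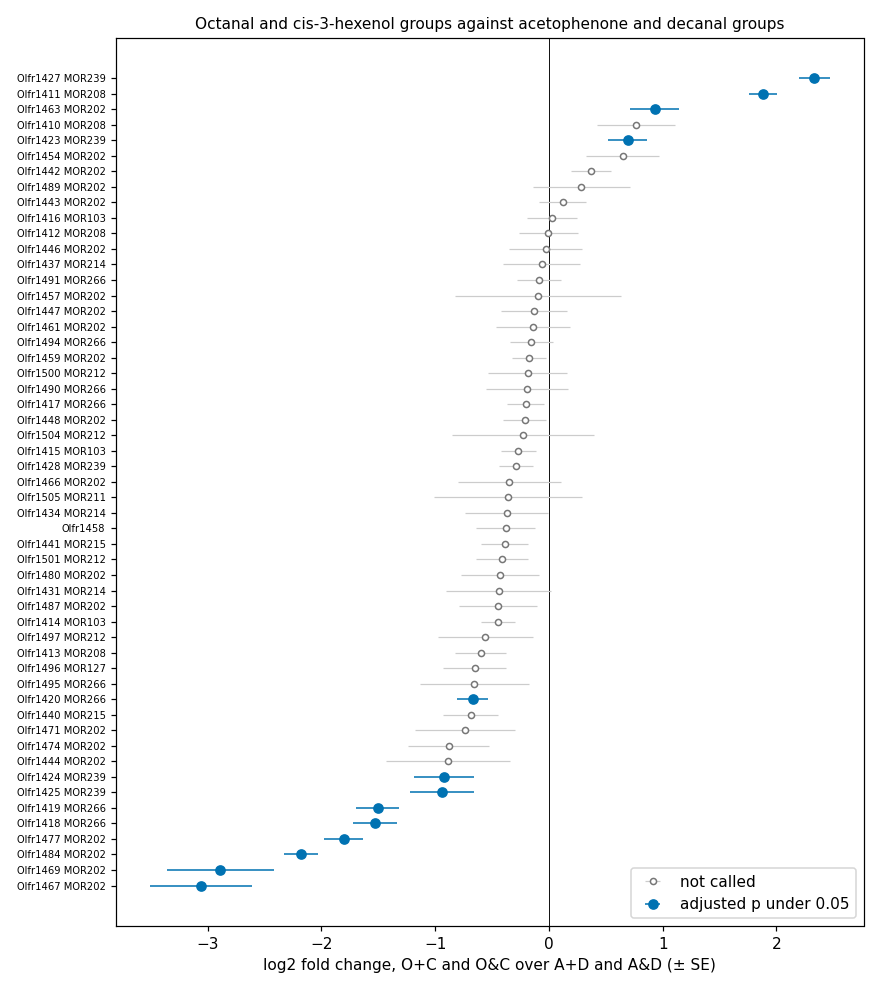
Log2 fold change (± SE) of each tested receptor, O+C and O&C libraries over A+D and A&D libraries, ordered by size and labelled with the subfamily. Filled points have an adjusted p under 0.05; 4 lie to the right of 0 and 9 to the left, and both directions hold MOR202 and MOR239 receptors.

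Whether near copies parted was measured as the log2 ratio of their counts within a library, with 1 added to each count, which weighs on pairs of low count. All 37 tested pairs of 1 subfamily with at least 80% coding identity were compared between the 6 octanal and cis-3-hexenol libraries and the 6 acetophenone and decanal libraries. The identity rule was chosen after the levels were seen. An exact two-sided permutation test was used, with Benjamini-Hochberg adjustment over the 37 pairs, and 0.00216 is the smallest p it can give. It pooled the delivery groups of each side, so a difference between A+D and A&D, or between O+C and O&C, is mixed into it. Of the 34 pairs without a receptor that passed the filter only through A+D and A&D, 13 had an adjusted p under 0.05. The other 3 pairs hold Olfr1467, Olfr1469, or Olfr1471 and Olfr1474, and their tests support nothing. The 13 pairs are not independent. They include Olfr1484 and Olfr1477, each over Olfr1480, Olfr1487 and Olfr1489, and Olfr1411 over Olfr1410, Olfr1412 and Olfr1413. Many hold a receptor already called between the odorant pairs in the same libraries. Pairs of other receptors were not compared, so the count has no background and is no result about near copies as a set. Olfr1484 over Olfr1487 averaged 2.27 ± 0.516 with octanal and cis-3-hexenol and 4.01 ± 0.738 with acetophenone and decanal (SD, n = 6; exact p = 0.00216, adjusted 0.0114), and the sides did not overlap. Olfr1477 over Olfr1484 averaged −0.84 ± 0.49 and, with acetophenone and decanal, −1.20 ± 0.37 (SD, n = 6; exact p = 0.182, adjusted 0.269), which does not show that these copies respond alike. Olfr1477, Olfr1484 and Olfr1487 all share reads with another gene, so these ratios are uncertain.

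Olfr1418 over Olfr1417 averaged −1.20 ± 0.42 with octanal and cis-3-hexenol and 0.12 ± 0.80 with acetophenone and decanal (SD, n = 6; exact p = 0.00649, adjusted 0.02), with the doubt that both share reads. Olfr1418 exceeded Olfr1417 only in A&D libraries, at ratios of 0.97, 0.72 and 0.73, and lay below it in A+D libraries (−0.61, −0.13 and −0.95) and in Control libraries (−1.47, −1.99 and −1.48). On chromosome 1, Olfr1411 over Olfr1412 averaged 2.24 ± 0.46 with octanal and cis-3-hexenol and 0.33 ± 0.36 with acetophenone and decanal, and Olfr1411 over Olfr1413 averaged 4.78 ± 0.43 and, with acetophenone and decanal, 2.28 ± 0.33 (SD, n = 6 a side; exact p = 0.00216, adjusted 0.0114 for each). Olfr1411 and Olfr1413 share reads with another gene as well, so the same doubt holds. Olfr1411 over its relative Olfr1410 averaged 4.63 ± 0.60 and, with acetophenone and decanal, 3.54 ± 0.55 (SD, n = 6; exact p = 0.013, adjusted 0.032). In Control libraries that ratio was 5.05, 4.03 and 4.05, within the range of the octanal and cis-3-hexenol libraries (3.86 to 5.47). It therefore does not show Olfr1411 parting from Olfr1410 with octanal and cis-3-hexenol.

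**Figure D4:**
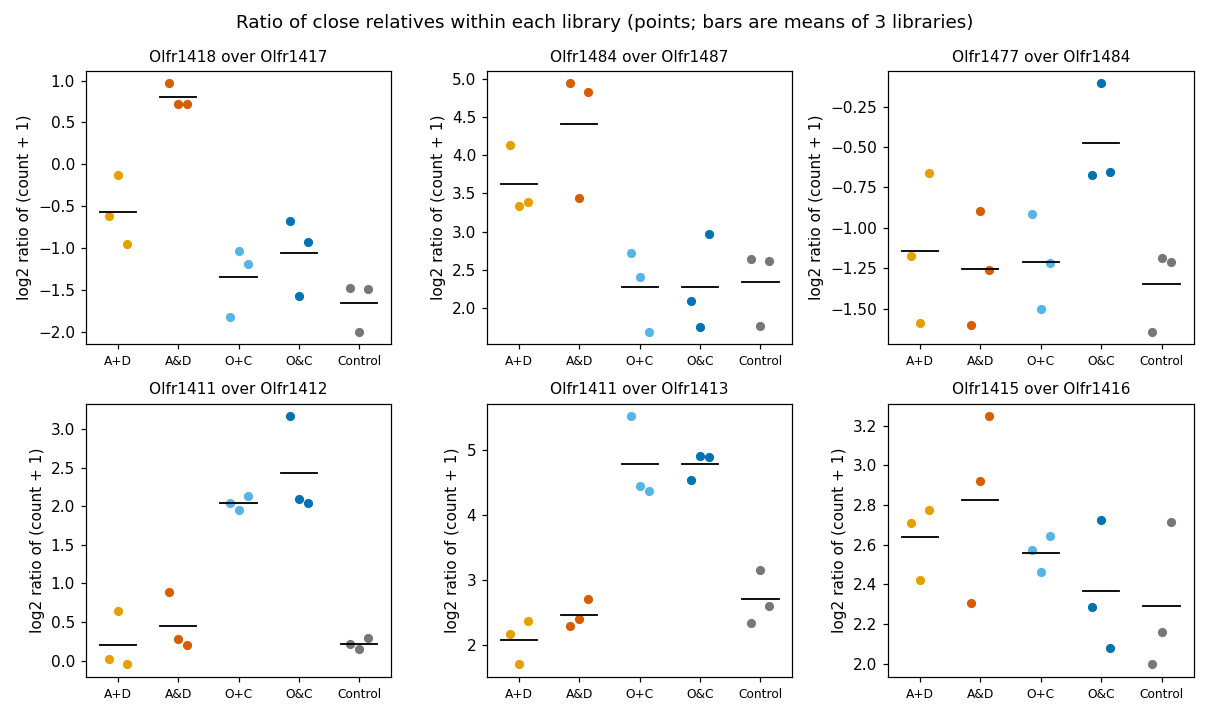
Log2 ratio of estimated counts, with 1 added to each, of 6 pairs of relatives within each library (points; bars are group means of 3 libraries). Olfr1484 over Olfr1487 and Olfr1418 over Olfr1417 have their highest group means in A&D mice, Olfr1411 over Olfr1412 and over Olfr1413 are higher in every O+C and O&C library than in any other, and Olfr1477 over Olfr1484 and Olfr1415 over Olfr1416 overlap between the sides.

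Few of these receptors differed between odorants given together and apart beyond the spread between libraries. In A+D against A&D mice 2 of 53 (3.77%) were lower and 0 (0%) higher, against 0.120% lower and 0% higher among all genes, and 2.42% lower and 0% higher among receptors. Olfr1420 fell by 1.18 ± 0.20 (log2, adjusted p = 0.0173) and Olfr1418 fell by 1.45 ± 0.27 (adjusted p = 0.0368, edgeR), with no overlap between A+D and A&D libraries in either gene. Both calls were lost when any library other than A+D 2 was left out (adjusted p up to 0.0973 for Olfr1420 and 0.289 for Olfr1418). Both were also lost when libraries were scaled on receptors alone, which moved the all-gene median by 0.15. Olfr1419 was lower by 1.09 ± 0.25 without being called (adjusted p = 0.242, edgeR). The 8 receptors called in A&D all had lower fitted levels in A+D mice, by 0.41 to 1.45 on the log2 scale, and were chosen on the same A&D libraries.

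O+C against O&C gave 0 calls of 53 receptors by edgeR (0% of all genes) and 0 by DESeq2, with 9 receptors at an unadjusted p under 0.05. The 7 receptors called higher in O&C had lower fitted levels in O+C mice, by 0.38 to 0.85 on the log2 scale, and share the O&C libraries that chose them. For Olfr1427 the difference was −0.38 ± 0.18 and for Olfr1411 −0.50 ± 0.16. The difference between the delivery effects of the odorant pairs gave 0 calls of 53 by edgeR (0.0104% of all genes and 0.115% of receptors, each higher) and 0 by DESeq2, with 6 receptors at an unadjusted p under 0.05. For Olfr1418 that interaction was 1.14 ± 0.39 and for Olfr1484 0.93 ± 0.29 (adjusted p = 1.00 for each, edgeR).

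Most of the 66 receptors did not pass any test. Of the 53 tested, 35 were called in none of the 8 comparisons. Against Control their log2 changes ran from −1.23 to 1.28 in A+D mice (median −0.03), −1.68 to 0.62 in A&D mice (median −0.04), −1.15 to 0.75 in O+C mice (median −0.31) and −1.86 to 0.79 in O&C mice (median −0.29). The median over all 53 was 0.03 in A+D mice, 0.02 in A&D mice, −0.19 in O+C mice and −0.28 in O&C mice, beside −0.06, −0.03, −0.33 and −0.39 over the 866 receptors tested. When scaled on receptors alone, the median of the 53 turned positive in O+C mice (0.05) and was −0.04 in O&C mice and −0.002 in A&D mice. MOR103, which holds the third receptor by Control CPM, was one subfamily with no call: Olfr1415 averaged 12.2 ± 3.87 CPM in A+D mice, 13.4 ± 2.26 in A&D mice, 10.98 ± 2.46 in O+C mice, 10.3 ± 0.630 in O&C mice and 12.6 ± 1.79 CPM in Control mice (SD, n = 3). The 4 tested subfamilies MOR127, MOR211, MOR214 and MOR215 also had none.

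As a share of all counts, the 66 receptors together made up 0.0191 ± 0.00220% in A+D mice, 0.0240 ± 0.000529% in A&D mice, 0.0257 ± 0.00113% in O+C mice, 0.0315 ± 0.00607% in O&C mice and 0.0179 ± 0.000958% in Control mice (SD, n = 3). Their share of receptor counts was 4.96 ± 0.212% in A+D mice, 5.12 ± 0.0735% in A&D mice, 5.50 ± 0.253% in O+C mice, 6.02 ± 0.212% in O&C mice and 5.26 ± 0.267% in Control mice. In O&C mice, Olfr1427 and Olfr1411 had the largest gains in mean CPM over Control mice among the 66.

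The machinery that serves all receptors moved as well. The transduction and chaperone lists share genes, such as Omp, Adcy3, Gnal and Gfy, with the mature neuron markers above. Their counts are therefore not independent of the counts for those markers. Among all genes 0.296% were called higher in A+D mice, 1.00% in A&D mice, 5.74% in O+C mice and 9.33% in O&C mice. Of 15 transduction genes, 2 rose in A&D mice (Omp, a marker of mature neurons that speeds the odour response, by 0.68 ± 0.14, and Gnal by 0.48 ± 0.10), 0 in A+D mice, 11 in O+C mice and 13 in O&C mice, and 1 (Ncald, a neuronal calcium sensor) fell in both O+C and O&C. Adcy3 rose by 1.19 ± 0.16 in O&C mice (adjusted p = 0.000114, edgeR). Of 6 chaperone and trafficking genes, which carry receptors to the membrane or aid their coupling, 5 rose in O+C mice and 5 in O&C mice, and 0 in A+D and A&D. Gfy, needed for olfactory signalling, rose by 1.35 ± 0.16 and Ric8b, a partner of Gnal, by 1.02 ± 0.15 in O&C mice. Of 12 genes linked to neuronal activity, 1 rose in A+D mice, 6 in A&D mice, 8 in O+C mice and 8 in O&C mice: Kcng1, a potassium channel subunit, by 1.87 ± 0.23 in A&D mice and 2.85 ± 0.23 in O&C mice, and Pcdh10, a cell adhesion protein, by 2.35 ± 0.37 and, in O&C mice, 2.76 ± 0.37.

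Some markers of other cells were lower in the octanal and cis-3-hexenol groups. Of 8 sustentacular (supporting cell) markers 2 were lower in O+C mice and 4 in O&C mice, with summed levels of 4870 to 5943 CPM in O+C mice and 4676 to 6051 CPM in O&C mice, against 7071 to 8321 CPM in Control mice. Of 8 immune markers 3 were lower in O+C mice and 5 in O&C mice. Of 5 red blood cell genes 0 were lower in O+C mice and all 5 in O&C mice. Among all genes 2.35% were called lower in O+C mice and 5.41% in O&C mice. Of 8 gland, 7 progenitor and 9 immature neuron markers 0 were lower in either group. Of 5 horizontal basal, 5 glial and 6 endothelial and stromal markers, 1 of each list was lower in each group. Of 4 microvillar and 5 respiratory ciliated markers 1 of each list was lower in O&C mice alone. The part of these marker shifts in the receptor changes was not tested. None of the listed markers was at 0 in all libraries.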

How the data were processed

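The deposited table holds expected counts, estimated per gene and not whole in all cases, with no library normalization. STAR 2.7.10b, Salmon 1.10.1, R 4.4.2 and GRCm39 are named in the submitters' processing notes; the annotation and the strand setting are not given in the sources used here. Of 57010 Ensembl identifiers, 52029 matched a symbol in the name table. RefSeq and GENCODE M21 annotations of GRCm38, another build, gave only names, chromosomes, gene order and coding sequences.

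Counts were rounded and filtered with edgeR 4.0.16 (filterByExpr, minimum count 10), which kept 19229 genes, and scaled by TMM. The robust quasi-likelihood F test was fitted on all 15 libraries with a mean per group (R 4.3.3), with Benjamini-Hochberg adjustment over all genes and a threshold of 0.05. The common dispersion was 0.0336. CPM is TMM-scaled. The labels call the libraries of a group biological replicates and do not say how many mice each holds, so p-values measure the spread between these libraries. The script was tested on simulated counts. DESeq2 1.42.0, other scalings, no filter, subsets of groups, a replicate block and leaving out each library were alternatives.

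Named receptors are, per Control comparison, the 8 called with the largest change of the same sign in every leave-one-out fit, 5 in the other comparisons, all lower calls up to 5, and the 3 with the highest Control CPM. From other gene lists at most 3 genes with the largest called change are named. The members and the lists were chosen with earlier results of these data known.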

Additional observations from a re-analysis of the deposited data

How the results depend on the processing

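No named receptor's change reversed under the alternatives run. The median log2 change of the 53 receptors did change sign when scaled on receptors alone: to 0.05 from −0.19 for O+C against Control, to −0.002 from 0.02 for A&D against Control and to −0.09 from 0.04 for the interaction. Leaving out 1 library gave 4 to 5 called receptors for A+D against Control, 6 to 8 for A&D, 3 to 3 for O+C (4 with all libraries), 7 to 8 for O&C (9 with all libraries), 0 to 2 for A+D against A&D, 11 to 14 between the odorant pairs and 0 to 0 for O+C against O&C and for the interaction. Without the filter on low counts, A+D against Control gave 7 calls in place of 4 and O+C against O&C gave 1 in place of 0. A+D against A&D gave 2 calls, but 0 when scaled on receptors alone, 1 with only these groups in the fit and 1 with the replicate block. The replicate block gave 4 calls in A+D mice, 7 in A&D mice, 3 in O+C mice, 9 in O&C mice and 12 between the odorant pairs. Libraries with the same number did not deviate together (r from −0.33 to 0.14 over 30 pairs of libraries, 3 over 0.1). Libraries with different numbers had r from −0.22 to 0.33 over 60 pairs, 14 of them over 0.1. The numbers thus gave no sign of pairing, but deviations from means of 3 libraries cannot exclude it. Of the named receptors' values, calls were lost in 5 of 31 with receptor scaling, 3 of 31 with the block, 2 of 31 with only the groups compared, 1 of 31 with DESeq2 factors in edgeR, 1 of 31 without the filter, 37 of 216 when a library was left out and 0 of the 28 to which DESeq2 gave an adjusted p. The cause of these differences was not tested. Counts of a few per library limit what can be said of the 13 untested receptors and of Olfr1474.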
